A study of Mus musculus with 6 samples.

Results

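Camk2a, Camk2b and Camk2g encode the α, β and γ subunits of calcium/calmodulin-dependent protein kinase II (CaMKII), and their peaks were examined in chromatin immunoprecipitation sequencing (ChIP-seq) of thyroid hormone receptor α (TRα). The members were these 3 genes, out of 395 genes that annotation text in the deposited peak tables named, and they were selected on their peaks in these lists: how many there were, their pileups and folds, and the mice that shared them. In each table a peak belonged to a member if the lines of overflowing annotation text after it held a RefSeq protein accession of that gene. This gave 28 peaks, 0.735% of the 3812 gene-named peaks, among 491681 peaks in all. Peaks without such text were not assigned to any gene, so the counts given here may miss peaks of a member. The study took gastrocnemius, a calf muscle, from 6 mice, 2 of them 6 months old, 2 aged 15 months and 2 aged 21 months, each with its own peak list. Every library was precipitated with an antibody to TRα and set against input chromatin of the same mouse. The labels name no strain, sex or genotype, and whole muscle was used, so peaks of muscle fibres and of other cells in the tissue cannot be told apart. Peak lists hold no expression values, so the tissue was not checked against marker genes.

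CaMKII is a serine/threonine kinase that assembles from several subunits and is switched on when calcium-loaded calmodulin binds it. Autophosphorylation then keeps it active after calcium has fallen, which lets it register repeated calcium pulses such as those of contracting muscle. The α subunit is best known from neurons, while skeletal muscle is known to hold a muscle form of the β subunit together with the γ and δ subunits. The Camk2a gene also gives rise in muscle to αKAP, a protein without a kinase domain that anchors the enzyme at the sarcoplasmic reticulum. TRα is a nuclear receptor that binds DNA, usually with a retinoid X receptor partner, at elements built from the half-site AGGTCA.

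The lists held 29405 to 106152 peaks per mouse, and 2 of them stood apart. Replicate 2 at 15 months had the shortest list, with 29405 peaks against 79040 to 106152 in the others. Replicate 1 at 6 months had the weakest enrichment, with a highest fold over input of 269 against 532 to 1543 in the other mice. Peaks with a fold of 10 or more numbered 44 in that mouse, against 108 to 211 in the rest. The genome-wide input background lay between 0.633 and 1.196 fragments, and the shallowest peaks of the lists rested on 3 or 4 fragments. Read totals were not used here. Pileup, the number of fragments stacked at a peak's summit, and fold are the authors' own values for single peaks. Fold is the ratio of pileup to local input background, with 1 added to both. Pileup and fold are used to describe and rank peaks within a list.

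Of the 28 Camk2 peaks, 5 had a q value, the p adjusted for multiple testing by the peak caller, of at most 0.05. These were 3 of Camk2b and 2 of Camk2g, with 0 of Camk2a. The 5 of 28 came to 17.9%, beside 1.99% of all gene-named peaks and 2.21% of the peaks of all lists, and since the genes were chosen with these peaks known the difference has no test. At least 1 such peak was found for 13.7% of the named genes. Camk2g and Camk2b ranked 2 and 4 among the 395 genes by the fold of their best peak, at 20.2 and 9.93, after Drd1 and on either side of Kif5c. Camk2a ranked 270, with a best fold of 3.19, against a median of 3.51 over the named genes.

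**Figure D1:**
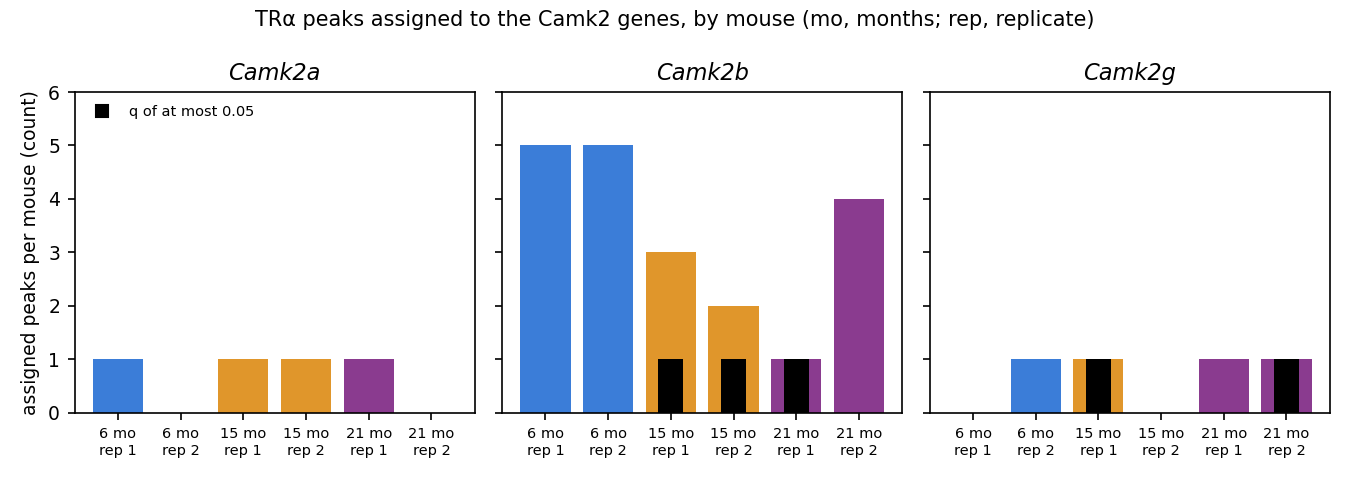
Number of TRα peaks assigned to each Camk2 gene (vertical axis, count) in each of the 6 mice (horizontal axis, by age and replicate); coloured bars show all assigned peaks and narrow black bars those with q of at most 0.05. Camk2b had 5 peaks in each mouse at 6 months, none of them with such a q, and each black bar stands at 15 or 21 months.

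Camk2b, the gene of the β subunit, was the only member with peaks in all 6 mice, which was true of 18.5% of the named genes. It had 20 peaks, and 51 of the 395 genes had more, against a median of 6 peaks per gene. The 6-month mice had 5 and 5 of them, the 15-month mice 3 and 2, and the 21-month mice 1 and 4. The mean was 5 ± 0 at 6 months, 2.5 ± 0.707 at 15 months and 2.5 ± 2.12 at 21 months (SD, n = 2 each). Each mouse at 6 months had more Camk2b peaks than any other mouse, which held for 3.80% of the named genes, and Camk2b was chosen with its counts known. Per 1000 gene-named peaks of a list, which allows for list length, the means were 7.24 ± 1.90, 5.88 ± 3.14 and 3.73 ± 3.04 at 6, 15 and 21 months (SD, n = 2 each). On that scale replicate 2 at 15 months, with 8.10, lay within the 5.90 to 8.58 of the 6-month mice. Replicate 2 at 21 months, with 5.87, lay just below that range, while replicate 1 at 15 and at 21 months had 3.66 and 1.58. With 2 mice per age these counts were not tested.

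The 20 Camk2b peaks lay on chromosome 11 between 5961918 and 6068462 (GRCm39), a span of 106.5 kb, and no other peak of any list fell between them. The same held for the peaks of Camk2a, of Camk2g and of the δ subunit gene Camk2d, so it does not set Camk2b apart. From the last unnamed peak before them to the first one after them was 125.0 kb, in which they stood at 16.0 peaks per 100 kb over the 6 lists, against 18.02 over all chromosomes. By number of peaks per length, then, the surroundings of Camk2b were no richer than the genome. The 3 peaks with q of at most 0.05 all fell at one place within the span.

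At chromosome 11, 5992859 to 5993460, a region of 602 bp carried a Camk2b peak in every 15-month and 21-month mouse. The pileup was 13 and 8 fragments in the 15-month mice, and 19 and 5 fragments in the 21-month mice. Neither mouse at 6 months had a peak listed there. Exact 95% Poisson intervals, which cover counting error only, were 6.92 to 22.2 for the pileup of 13, 3.45 to 15.8 for 8, 11.4 to 29.7 for 19 and 1.62 to 11.7 for 5. Pileups were not scaled for the depth of each library, so these intervals do not compare one mouse with another. The intervals also make no allowance for the summit being the highest point of a chosen peak. The −log10 q was 8.44 and 2.27 at 15 months, and 14.2 and 0.354 at 21 months, so the peak of replicate 2 at 21 months had a q above 0.05.

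The peaks of the 4 mice coincided closely in position. Their summits fell between 5993015 and 5993069, within 54 bp, and 251 bp were common to all 4 peaks. The summits of both mice at 15 months and of replicate 1 at 21 months were at 5993026, 5993015 and 5993022. The input at this place was near the genome-wide level of each list, at 1.10 and 1.00 times that level in the 15-month mice and 1.25 and 1.301 times in the 21-month mice.

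**Figure D2:**
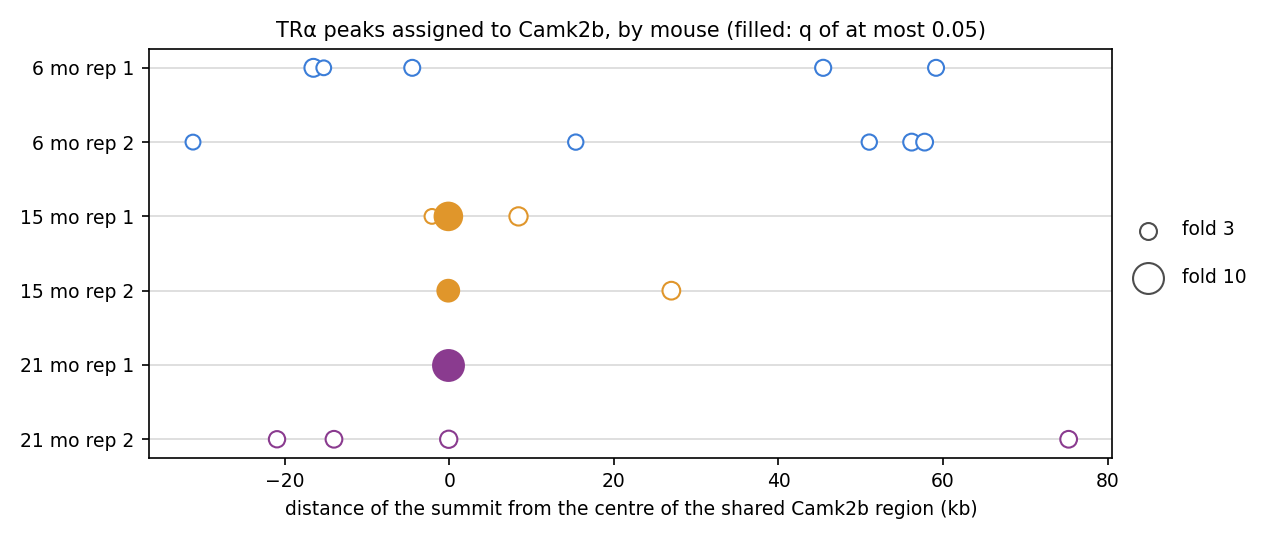
Summits of the Camk2b peaks by mouse (rows, from 6 months at the top to 21 months at the bottom) against distance in kb from the centre of the shared region; circle area is proportional to fold over input and filled circles have q of at most 0.05. The column at 0 kb holds 4 circles, from the mice of 15 and 21 months, and the rows at 6 months have their 5 circles each at other distances.

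Within their own lists the peaks at this region ranked high in 3 mice and lower in replicate 2 at 21 months. By fold they ranked 275 of 99436 and 262 of 29405 at 15 months, and 172 of 91661 and 22451 of 85987 at 21 months. Among gene-named peaks of the same lists their ranks were 5 and 3 in the 15-month mice, and 3 and 182 in the 21-month mice. The fold of replicate 2 at 21 months, 3.12, was higher than that of 73.9% of the peaks in its list. Folds in the other mice were 7.92, 4.93 and 9.93, each above 98.8% or more of their lists.

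Regions of this pattern, with a peak in exactly the 4 mice of 15 and 21 months, numbered 8 of 458111 regions merged over all lists (0.00175%), or 2.12% of the 378 regions with peaks in 4 mice. The region of Camk2b was the only gene-named one of the 8 and had the highest best fold among them, against a median of 5.43. A q of at most 0.05 in at least 3 mice was found for 3 of the 8. The region was singled out for its pattern, so these numbers describe it and do not test it. At 6 months the nearest listed peak was 4.09 kb away in replicate 1, with a pileup of 5, and 14.9 kb away in replicate 2, with a pileup of 3. The lowest pileup anywhere in the lists at 6 months was 4 in replicate 1 and 3 in replicate 2, so a stack below that would not have been listed. Replicate 1 at 6 months had the weakest enrichment, with 44 peaks of at least 10-fold, and replicate 2 at that age had 211. Replicate 1 at 15 months also had 211, and replicate 2 at 21 months had 166 with a pileup of only 5 here. Whether the enrichment of a library bears on the missing peak was not tested.

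**Figure D3:**
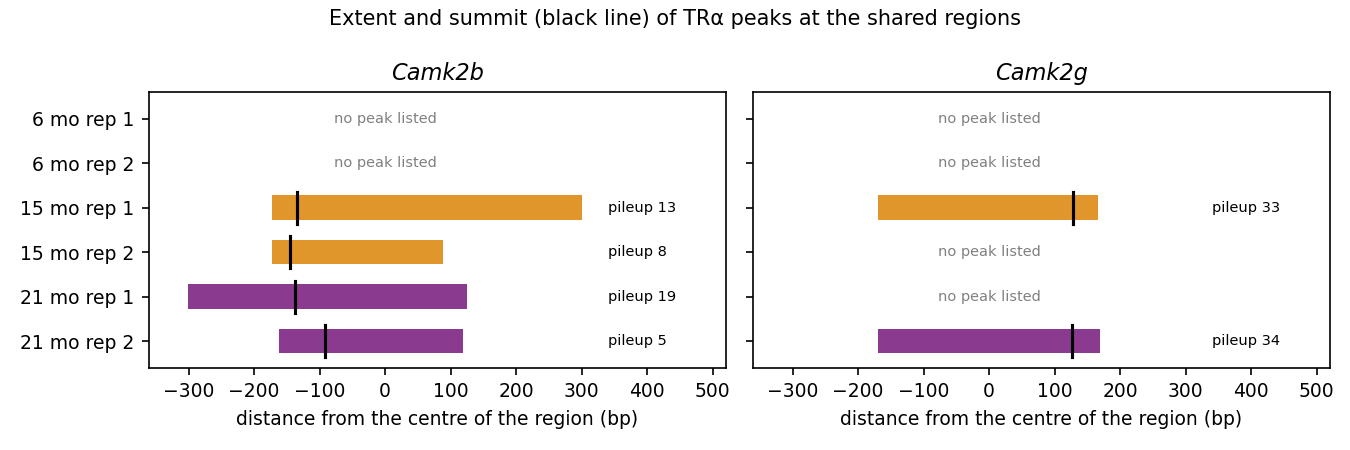
Extent of the TRα peaks (bars) and their summits (black lines) at the shared regions of Camk2b (left) and Camk2g (right), by mouse in rows, against distance in bp from the centre of each region, with pileup in fragments at the right. The Camk2b summits of 4 mice lie within 54 bp, and the Camk2g peaks of 2 mice begin at the same base.

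The other 16 Camk2b peaks were each found in a single mouse. They had pileups of 3 to 7 fragments and folds of 2.28 to 3.49, and 0 of them had q of at most 0.05. They came from the 6-month lists in 10 cases, 5 from each mouse, with 3 from 15 months and 3 from 21 months. At 6 months they were spread over 75.9 kb in replicate 1 and 89.1 kb in replicate 2. The deepest was a peak of replicate 1 at 6 months at 5976539 to 5976820, with a pileup of 7 and a fold of 3.36. The widest, of 968 bp, was in the same mouse at 6051472 to 6052439, and lay 422 bp from a peak of replicate 2 at 6050738 to 6051049 without overlapping it. Among the 16, 6 had a local background within 1% of the lowest in their list, and the highest ratio was 1.84, in replicate 2 at 6 months at 5961918 to 5962119. Replicate 1 at 21 months had no Camk2b peak outside the shared region.

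The only member promoter held in the RefSeq sequence table used here was that of Camk2b, taken from 250 bases before to 50 bases after the gene's start (GRCm38.p6, chr11:6065699-6065998, minus strand). It is shown because the receptor's half-site can be looked for in it directly. Its build differs from that of the peaks, so no peak was placed on it.
Camk2b promoter: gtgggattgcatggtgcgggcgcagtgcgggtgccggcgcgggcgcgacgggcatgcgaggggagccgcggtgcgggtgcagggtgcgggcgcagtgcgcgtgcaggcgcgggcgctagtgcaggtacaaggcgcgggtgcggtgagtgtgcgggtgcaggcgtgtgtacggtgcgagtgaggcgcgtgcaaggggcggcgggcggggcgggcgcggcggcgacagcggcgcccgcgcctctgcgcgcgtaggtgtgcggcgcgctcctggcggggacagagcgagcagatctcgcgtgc
Neither AGGTCA nor its reverse complement TGACCT occurs in these 300 bases, whereas 16.3% of the 32851 promoters in the table hold at least 1 of them. The stretch is 77.3% G or C, against a median of 52.7% over all promoters, and holds 51 CG dinucleotides. The absence of these letters from this window says nothing about binding at the peaks.

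Camk2g, the gene of the γ subunit, had only 4 peaks, as had 32 of the 395 named genes, but they included the deepest of the family. The 6-month mice had 0 and 1 of them, the 15-month mice 1 and 0, and the 21-month mice 1 each. A peak at chromosome 14, 20816914 to 20817252, was present in replicate 1 at 15 months and in replicate 2 at 21 months. Its pileup was 33 fragments in the mouse of 15 months (95% Poisson interval 22.7 to 46.3) and 34 fragments in the mouse of 21 months (23.5 to 47.5). These intervals have the same limits as those at the Camk2b region. The folds were 18.4 and 20.2 and the −log10 q 36.4 and 40.2. The other mouse of each of these ages, and both mice at 6 months, had no peak listed at this place.

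Both Camk2g peaks began at base 20816914, ended 4 bp apart and had summits 2 bp apart, at 20817211 and 20817209. Equal starts were seen for 2.29% of the 3051 overlapping peak pairs of these 2 lists, and for 24.8% of the 117 pairs with a fold of at least 10 in both. The local background from input stood at 1.22 and 1.03 times the lowest of each list. By fold the peaks ranked 106 of 99436 at 15 months and 104 of 85987 at 21 months, and each was the highest-ranked gene-named peak of its list.

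Regions present in exactly these 2 mice numbered 2172, or 0.474% of all regions, and 0.414% of those had q of at most 0.05 in both mice, which was 9 regions. Ranked by the lower of the 2 folds, the Camk2g region was the first of the 2172, whose median was 2.64, and 2 of them reached 10. Replicate 1 at 21 months had the nearest other peak to it, 2.23 kb away with a pileup of 4, and in replicate 2 at 6 months the nearest was 2.75 kb away with a pileup of 5. In replicate 2 at 15 months and replicate 1 at 6 months no peak was listed within 51.7 kb and 104.3 kb. The lowest pileups in the 4 lists without the peak were 3 or 4 fragments, against the 33 and 34 found in the other 2. At 15 and at 21 months alike, 1 mouse had this peak and the other did not.

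The other 2 Camk2g peaks, in replicate 1 at 21 months and replicate 2 at 6 months, were shallow. The peak of replicate 1 at 21 months was at 20819481 to 20819722, with a pileup of 4 and a fold of 2.67. That of replicate 2 at 6 months was at 20820006 to 20820205, with a pileup of 5 and a fold of 3.29. They were 283 bp apart and neither reached q of at most 0.05. The 4 peaks spanned 3.29 kb with no other peak between them, inside a stretch of 82.0 kb free of unnamed peaks.

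**Figure D4:**
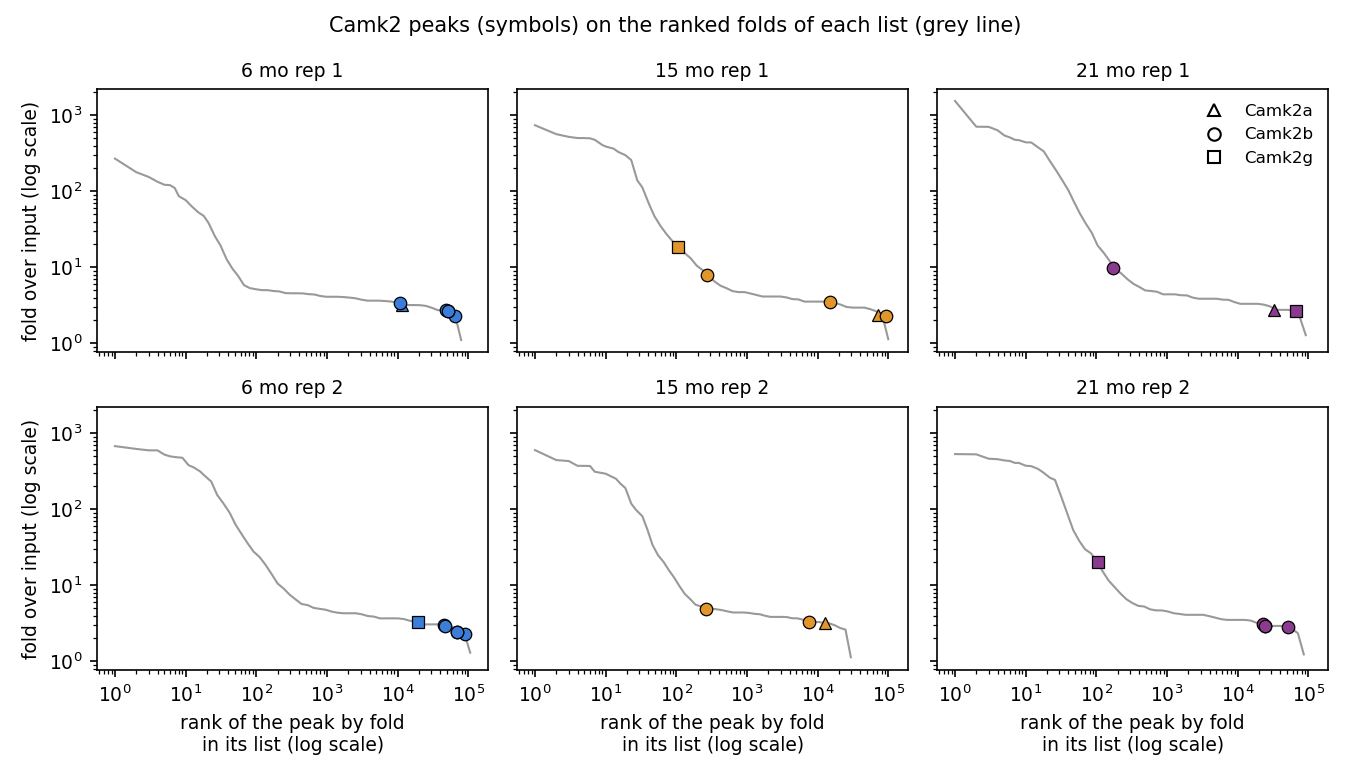
Fold over input of each peak against its rank by fold in its own list, both on log scales, with 1 panel per mouse; the grey line is the whole list and symbols are the Camk2 peaks. The Camk2g squares at ranks 106 and 104 and the Camk2b circles at ranks 275 and 172 lie on the steep part of the line, the circle at rank 262 lies where the line flattens, and the rest lie on its long shallow part.

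Camk2a, the gene of the α subunit, also had 4 assigned peaks, all of them shallow. There was 1 in replicate 1 at 6 months, 1 in each mouse at 15 months and 1 in replicate 1 at 21 months. They lay on chromosome 18 between 61052169 and 61056617, a span of 4.45 kb, and no base of any of them was shared between mice. The peak of replicate 1 at 6 months had a pileup of 6 and a fold of 3.19. The peaks of replicates 1 and 2 at 15 months had pileups of 3 and 5 and folds of 2.36 and 3.16, and that of replicate 1 at 21 months had a pileup of 4 and a fold of 2.76. All 4 were far from q of at most 0.05, with −log10 q of at most 0.219.

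The Camk2a peaks fell into 2 places. Those of replicate 1 at 6 months and replicate 1 at 21 months were 263 bp apart, and those of both mice at 15 months were 105 bp apart, at 61055990 to 61056206 and 61056312 to 61056617. Local background was within 1% of the lowest in the list for 3 of the 4 and 1.09 times it for the other. A Camk2a peak was thus listed in 1 of 2 mice at 6 months, 2 of 2 at 15 months and 1 of 2 at 21 months, at positions that did not overlap.

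Over the 3 genes the 28 peaks formed 24 regions, of which 2 were shared by several mice, the Camk2b and Camk2g regions above. That is beside 5.52% of all gene-named regions and 6.40% of all regions with peaks in at least 2 mice. A shared region was found for 28.4% of the named genes. The Camk2g region had peaks in only 2 mice, replicate 1 at 15 months and replicate 2 at 21 months. Leaving out either mouse therefore left 1 shared region. The 22 peaks found in 1 mouse had a median pileup of 4 and folds of 2.28 to 3.49, whereas the 6 peaks at shared regions had pileups of 5 to 34.

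The annotation text gave each of the 3 members 31 pathway entries, the same 31 for all, against a median of 10 per named gene. A further 1 named gene carried all 31, and it was Camk2d, the gene of the δ subunit. Camk2d had 8 peaks over 4 mice. The 6-month mice had 0 and 2, the 15-month mice 2 and 1, and the 21-month mice 3 and 0. Its best fold was 3.24, 0 of its peaks had q of at most 0.05, and no position was shared by any pair of mice.

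Among 81 other genes of calcium and calmodulin signalling, 13 were named. Naming depended on annotation text running over, which followed 3987 of the 491681 peaks, so a gene that was not named may still have peaks. A single one of the 13 reached q of at most 0.05, beside 13.7% of all named genes, and it was Grin2a, an NMDA receptor subunit gene and the most peak-rich gene named. Of 19 other calmodulin-dependent kinases and their activators 1 was named, Camk2d. From the 16 calmodulin and calcineurin genes 1 was named, Ppp3cb, a catalytic subunit of the calcineurin phosphatase, with 8 peaks in 4 mice and a best fold of 3.64. None of 25 genes of muscle calcium release and uptake was named, and their peaks were not analysed here. Of the 21 targets and downstream genes 11 were named, with 247 peaks together, and 4 of them had peaks in all 6 mice, beside 18.5% of all named genes. Those were Mef2c, a transcription factor of muscle genes with 53 peaks, Hdac4, a class II histone deacetylase that CaMKII phosphorylates, with 17, Ppargc1a, a coactivator of mitochondrial biogenesis, with 35, and Grin2a with 95. Regions shared by several mice were found for Mef2c, Ppargc1a and Grin2a, in at most 2, 2 and 3 mice, beside 28.4% of all named genes with such a region. Their best folds were 3.82, 3.94 and 4.29, below those of Camk2b and Camk2g.

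Similarity of pattern was measured over the 6 lists as the summed absolute difference in peaks per 1000 gene-named peaks. The genes most like Camk2b were Edn1, Ccr7 and Grm3, with sums of 10.2, 11.1 and 11.3. Edn1, the gene of the vasoconstrictor peptide endothelin 1, had 2 and 6 peaks in the 6-month mice, 5 and 2 in the 15-month mice, and 1 and 5 in the 21-month mice. Nearest to Camk2g were Slit2, with the same count in every list and a sum of 0, and Akt2 and Dvl3, each with 1.47. Nearest to Camk2a were Grm4, Lgals9 and Sirt2, with sums of 1.72, 2.89 and 2.94. With counts of 0 to 2 in every list, the matches to Camk2g and Camk2a describe few peaks.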

How the data were processed

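Peak tables of 6 mice were used, 2 each at 6, 15 and 21 months. The submitters' processing notes list HOMER (3), MACS2 (2.1.1.20160309), SAMtools (1.3.1) and Trimmomatic (0.36), and both GRCm39 and mm10 as builds. Not given in the sources used here were the aligner and the settings of the peak caller. Scaffold names in the lists are those of GRCm39, so positions are GRCm39, counted from 1. Peaks were called per mouse against its own input, per the deposited peak names. The deposited pileup is a signal, and the deposited fold enrichment is its ratio to local input background, with 1 added to both. Columns 7 and 9 are deposited −log10 values, of p and q, identified by column order because their headers were lost. The Poisson probability of a higher pileup, at a background of (pileup + 1) / fold − 1, came within 1% of the deposited p (on the −log10 scale) in all 491436 peaks for which it could be computed. It was too small to compute for 245. Deposited BED files repeated these peaks and pileups.

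Overflow text followed 3987 peaks, and its protein accessions were matched to symbols with a RefSeq table of GRCm38.p6, used for names only, which named 3812. Peaks were merged into regions where they overlapped by 1 bp or more, with Python 3.11.15 and pandas 2.3.3, in steps tested on simulated data. The genome-wide background was the lowest in a list. Members and gene lists were chosen with earlier results of these data known, so no test was run. The rule for genes given in the text took the members, the calcium list genes that annotation text named, and the 3 genes most like each member. Drd1 and Kif5c, outside this rule, are given for their ranks and were chosen after their values were seen. The labels number the replicates within each age, and each replicate was taken as a separate mouse. Alternatives were limits on q, pileup and list length, 2 other overlap rules, and leaving out each mouse.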

Additional observations from a re-analysis of the deposited data

How the results depend on the processing

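With q of at most 0.05 the assigned peaks numbered 0 for Camk2a, 3 for Camk2b and 2 for Camk2g, and with −log10 q of at least 5 they were 0, 2 and 2. A pileup of at least 5 left 2 peaks of Camk2a and 10 of Camk2b, and lists of equal length, 29405 peaks each, left 2 and 9. Camk2g kept 3 of its 4 peaks under either. The Camk2b region on chromosome 11 had peaks in 4 mice under equal list lengths, a pileup of at least 5, an overlap of 50% of both peaks, and merging across 500 bp. It had peaks in 3 mice with q of at most 0.05 and in 2, replicate 1 at 15 and at 21 months, under the stricter limit on q. Shared regions numbered 2 under every limit and under the overlap of 50% of both peaks, and 6 when peaks up to 500 bp apart were merged, since neighbouring peaks of different mice then count as one region. Leaving out each mouse in turn gave 3 to 4 peaks of Camk2a, 15 to 19 of Camk2b and 3 to 4 of Camk2g, 3 to 4 mice at the Camk2b region and 1 to 2 shared regions. These ranges follow directly from the peaks listed for each mouse and are no further check. No paired analysis was possible because the results come from no test and equal replicate numbers do not mark shared animals. At 3 or 4 fragments per peak near the limit of p, a peak missing from a list does not show that the place was unbound.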
